A study of Mus musculus with 18 samples.

Results

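The tumour suppressor p53 (Trp53 in the mouse), its regulators and the genes it is known to activate after DNA damage were followed in mouse brown adipocytes in which the long non-coding RNA Gm15551 was targeted with antisense oligonucleotides. The genes were listed by symbol for their known place in the pathway, with earlier results of these data known, and 36 of the 54347 genes of the count table were members, each matching 1 row. They fell into 5 groups by role, with 4 genes for p53 and its direct regulators, 7 for arrest and growth control, 13 for apoptosis, 5 for DNA repair and nucleotide supply and 7 for metabolism and stress. The cells were wt1-SAM, a single immortalised line of brown preadipocytes from the mouse with stably integrated SAM, a CRISPR activation system, present in every group. On day 4 of differentiation, 500000 cells per well were reverse transfected with 1.4 µl of a locked nucleic acid oligonucleotide (LNA, a gapmer that directs cleavage of the RNA it pairs with) at 10 µM. The LNA was ctrlA, which has no intended target, or LNA1 or LNA2, directed at different sites of Gm15551. Cells were harvested on day 7, either unstimulated or after 24 h of β-adrenergic stimulation with 1 µM isoproterenol, which switches on thermogenesis in brown adipocytes. Each of the 6 groups held 3 libraries, numbered 2, 3 and 4, and no group without an LNA was analysed here.

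p53 is a transcription factor that is kept low by the ubiquitin ligase Mdm2 and is stabilised when kinases of the damage response are activated. It then induces genes that halt the cell cycle, among them Cdkn1a (p21), genes that repair DNA or supply nucleotides, and genes that commit the cell to apoptosis, together with Mdm2 itself, which closes a negative feedback loop. Because much of p53 is regulated as a protein, its own transcript can stay level while its target transcripts rise. In adipose tissue, p53 has been linked to the control of adipocyte differentiation and to the stress state of fat in obesity.

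The oligonucleotides are shown first because the groups differ only in them and in the stimulation. They are written 5′ to 3′ in lower case, as listed by the study, with no part marked.
ctrlA: aacacgtctatacgc
LNA1: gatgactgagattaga
LNA2: aagtagcacggcgttg
LNA1 and LNA2 were each complementary over all 16 bases to Gm15551, an antisense gene of 2 exons at chr3:126667329-126669044 (GRCm38, minus strand) that lies within Camk2d on the opposite strand. Both sites were in exon 2, at chr3:126667502-126667517 for LNA1 and chr3:126667608-126667623 for LNA2. In the annotated spliced transcripts of the members, the longest run complementary to LNA1 was 9 bases, in Btg2 only, and 12.4% of all 14936 tested genes with a transcript held a run at least that long. For LNA2 it was 8 bases, in Apaf1, Bax, Gdf15 and Plk3, a length that 21.8% of the tested genes reached. For ctrlA it was also 8 bases, in Ak1, Apaf1, Ephx1, Mdm4 and Zmat3, against 11.3% of the tested genes. Introns were not searched.

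Promoter sequence of the members was examined as well. RefSeq promoter windows (250 bases before to 50 bases after a start, build GRCm38.p6) were at hand for 28 of the 36 members. The p53 half-site, a motif of 10 letters that is its own reverse complement, so that both strands were covered by 1 search, was found in the windows of 11 of these 28 members (39.3%) and of 9.55% of all 27025 genes with a window. The 11 members were Trp53, Mdm2, Ppm1d, Cdkn1a, Ccng1, Gadd45a, Bax, Aen, Ei24, Polk and Sesn1. 3 stretches are printed, with the half-site in capitals, because of the genes they belong to: the main inhibitor of p53, its best known arrest target, and the member with the lowest log2 difference from ctrlA under LNA1.
Mdm2: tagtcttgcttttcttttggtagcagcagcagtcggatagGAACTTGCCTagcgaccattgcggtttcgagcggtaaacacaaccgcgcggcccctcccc
Cdkn1a: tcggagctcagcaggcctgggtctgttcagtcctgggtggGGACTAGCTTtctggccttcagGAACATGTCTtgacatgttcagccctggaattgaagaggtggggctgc
Polk: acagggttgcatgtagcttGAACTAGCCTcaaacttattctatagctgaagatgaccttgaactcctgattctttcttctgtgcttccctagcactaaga
The Mdm2 stretch is chr10:117710885-117710984 on the minus strand, with the half-site beginning 186 bases before the start. The Cdkn1a stretch is chr17:29090866-29090975 on the plus strand and holds 2 half-sites, beginning 73 and 51 bases before the start, whereas 0.359% of all 32851 windows held 2 or more. The Polk stretch is chr13:96519338-96519437 on the minus strand, before an alternative RefSeq start inside the gene, with the half-site beginning 231 bases before that start. A match of letters is a description of the window and does not show that p53 binds there.

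Library totals ranged from 9167560 to 19723021 counts, and 3 counts, taken as the floor of detection, corresponded to 0.170 to 0.306 CPM (library-scaled counts after TMM normalisation, the unit of all levels below). The 6 libraries numbered 2 stood apart, with 7.86 to 9.79% of their counts in mitochondrial genes against 2.56 to 4.97% in the other 12. A further 2.88 to 14.3% of their counts, against 0.285 to 1.04%, fell on CT010467.1, a ribosomal RNA gene. Because libraries of the same number deviated together, every comparison was fitted as well with a term for the replicate number, called the replicate block below, and also without the libraries numbered 2. The targeted gene could not serve as a check of the labels at this depth. Gm15551 had 2 to 14 counts per library with ctrlA, 1 to 12 with LNA1 and 1 to 13 with LNA2. The direction was not the same in all libraries: against the ctrlA library of the same number and state, its CPM was higher with both targeting LNAs in the unstimulated libraries numbered 2 (1.02 and 1.07 against 0.794) and the stimulated libraries numbered 3 (0.291 and 0.393 against 0.129), and lower with both in the other 4 sets. In an edgeR fit without a filter on low counts its log2 difference from ctrlA was -0.70 ± 0.59 (SE, adjusted p = 1.00) for LNA1 and -0.43 ± 0.57 (SE, adjusted p = 1.00) for LNA2. The labelled cell type was checked against 8 adipocyte markers, which were all tested and had a summed level of 15473 to 28449 CPM for ctrlA, 13570 to 25359 for LNA1 and 12726 to 24436 for LNA2. With the LNAs 0 of the 8 were called, but 0 were above 0 with LNA1 (median log2 difference -0.09) and 1 with LNA2 (median -0.21). With isoproterenol 3 of the 8 were above 0 (median -0.13), the thermogenic markers Ucp1 and Cidea rose by 3.51 ± 0.17 and 1.27 ± 0.20 (log2, SE, edgeR, adjusted p = 1.12e-08 and 0.00110), and Adipoq fell by 0.71 ± 0.14 (adjusted p = 0.00730).

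Some markers of other cells moved with the LNAs and are given here beside the member results. Of 6 macrophage markers, 2 passed the filter on low counts, and the summed level of the list was 8.28 to 24.8 CPM in ctrlA libraries, 11.9 to 30.3 in LNA1 libraries and 14.1 to 44.6 in LNA2 libraries. Csf1r and Cd68 were called higher with LNA2 than with ctrlA under the replicate block (log2 1.71, adjusted p = 0.00677, and 0.88, adjusted p = 7.74e-05, edgeR), although not without it (adjusted p = 0.137 and 0.0570). Against LNA1 the block called Csf1r higher with LNA2 (2.06, adjusted p = 0.00496). The defining macrophage marker Adgre1 had 0 counts in every ctrlA and LNA2 library and 4 over the 6 LNA1 libraries, and Ptprc had 3, 8 and 1 counts over the 6 libraries each of ctrlA, LNA1 and LNA2. Of 6 preadipocyte markers, 4 were tested, and the list summed to 41.2 to 77.3 CPM for ctrlA, 41.7 to 86.7 for LNA1 and 48.1 to 88.6 for LNA2. Pdgfra was higher than with ctrlA by 0.89 ± 0.13 (log2, SE, edgeR, adjusted p = 0.00743) with LNA1 and by 0.71 ± 0.13 (adjusted p = 0.0121) with LNA2. Of the 4 tested, 2 were above 0 with LNA1 (median log2 difference -0.04) and 3 with LNA2 (median 0.39). The block also called Ly6a higher with LNA2, by 0.66 against ctrlA (adjusted p = 0.00549, edgeR) and by 0.51 against LNA1 (adjusted p = 0.0307). All 8 markers of cycling cells were tested and 0 were called with either LNA, but all 8 were below 0 with LNA1 (median -0.11), with LNA2 (median -0.24) and with LNA2 against LNA1 (median -0.13), with summed levels of 993 to 1670 CPM for ctrlA, 900.1 to 1529 CPM for LNA1 and 788 to 1511 CPM for LNA2. The endothelial list, with 1 of 4 markers tested and 0 called, stayed between 1.77 and 3.99 CPM in every library. The part of these cells in the results below was not tested, and in these bulk samples fewer cells of a type and less RNA per cell cannot be told apart.

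Of the 36 members, 34 passed the filter and were tested among 14949 genes. A gene was called where its Benjamini-Hochberg adjusted p in edgeR was below 0.05 and its absolute log2 difference above 0.5. The labels do not say whether libraries of a group came from separate cultures, so all p-values measure only the spread between these libraries, which may be technical. With LNA2, 3 of 34 members were called against ctrlA and all 3 were higher (8.82%), against 1.42% of all genes in either direction and 0.983% higher. These were Ak1, Ephx1 and Plk2, and without the fold limit Mdm2 made them 4 (1.59% of all genes, 1.07% higher). Under the replicate block, 6 of 34 were called, again all higher, with 5.53% of all genes called and 3.77% higher. The block added Zmat3, Eda2r and Phlda3. More members, and more of all genes, were also called without the libraries numbered 2, with the counts given in the last section. When the fold limit was dropped as well, an alternative chosen after seeing the data, 15 of 34 members were called, all 15 higher, against 20.6% of all genes and 9.43% higher. Over the 34 tested members the median log2 difference was 0.21 and 27 were above 0, while over all genes the median was -0.02 and 46.8% were above 0.

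LNA2 was also compared directly with LNA1, which shares its target but not its sequence. Here 8 of 34 members were called (23.5%), all higher with LNA2, against 0.923% of all genes and 0.334% higher. They were Mdm2, Plk2, Aen, Polk, Gdf15, Dcxr, Ephx1 and Ak1, so that each of the 5 role groups held at least 1. The replicate block brought the count to 12 by adding Zmat3, Fas, Eda2r and Phlda3, against 4.11% of all genes and 1.65% higher. Over the 34 members the median log2 difference was 0.28 with 30 above 0, against a median of -0.003 over all genes. With no fold limit the count was 8 (0.97% of all genes, 0.361% higher), and with the block as well it was 20, all higher (15.4% of all genes, 8.23% higher). This comparison uses the same LNA2 libraries as the one with ctrlA, and the 2 are not independent.

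With LNA1, 0 of 34 members were called against ctrlA by edgeR, where 0.442% of all genes were called. At an unadjusted p below 0.05 there were 4 members and 899 of all 14949 genes. DESeq2 called 1 member, Polk, which was lower, with its count over all genes given in the last section. Under the replicate block 2 were called, Polk and Dcxr, both lower, against 2.43% of all genes and 0.355% lower. Without the fold limit 0 were called (0.475% of all genes), and with the block as well 5, all lower (7.8% of all genes, 4.03% lower). The median over the members was -0.08, with 24 of 34 below 0, against -0.02 over all genes. LNA1 and LNA2 share the ctrlA libraries, so the values against ctrlA are set side by side below and not compared as separate evidence.

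**Figure D1:**
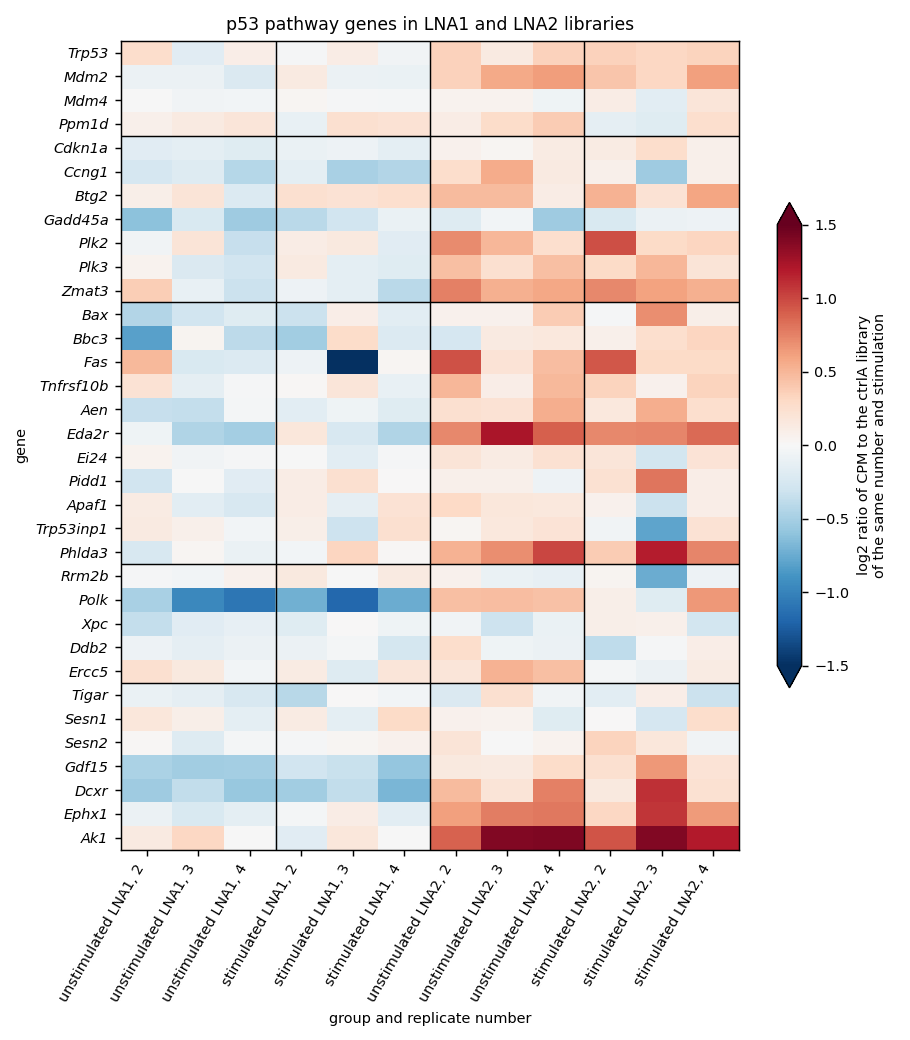
Log2 ratio of CPM in each of the 12 LNA1 and LNA2 libraries (columns, named by group and replicate number) to the ctrlA library of the same number and stimulation, for the 34 tested members (rows, with lines between the 5 role groups). Red is higher and blue lower than ctrlA, and 16 members are red in all 6 LNA2 columns whereas 0 are red in all 6 LNA1 columns.

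Compared library by library with the ctrlA library of the same number and stimulation, 16 of 34 members were higher in all 6 LNA2 libraries, against 9.91% of all genes, and 1, Gadd45a, was lower in all 6, against 12.1%. In the 6 LNA1 libraries 0 members were higher throughout, against 7.91% of all genes, and 8 were lower throughout, against 12.1%. Those 8 were Cdkn1a, Ccng1, Gadd45a, Aen, Polk, Ddb2, Gdf15 and Dcxr. The heat map of these ratios shows each library.

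**Figure D2:**
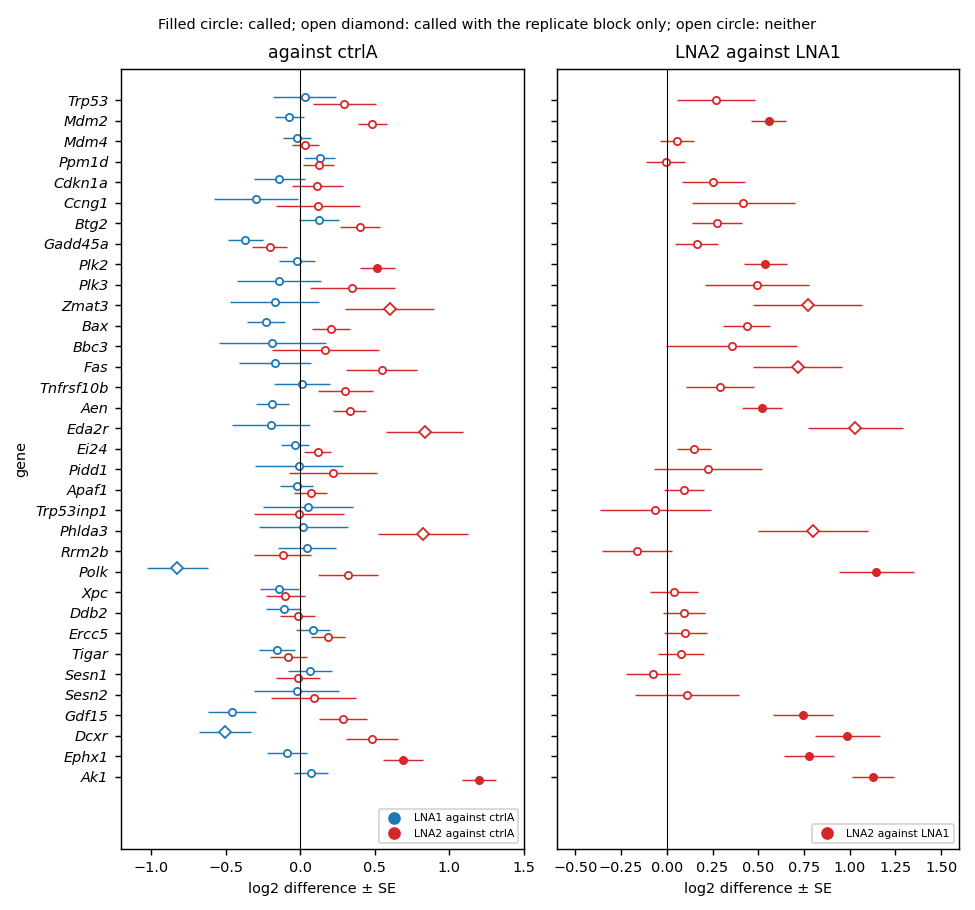
Log2 difference ± SE from the edgeR model for each tested member, over both stimulation states (6 libraries against 6), for LNA1 (blue) and LNA2 (red) against ctrlA on the left and LNA2 against LNA1 on the right. Filled circles mark the 3 and 8 members called. Open diamonds mark those called with the replicate block but not by this model without it, whatever other fits gave. The points for LNA2 lie mostly to the right of the line at 0.

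Among p53 and its direct regulators, Mdm2 differed between the LNAs while Trp53, Mdm4 and Ppm1d were not called in any comparison. Mdm2 (chr10:117688875-117710758, minus strand) encodes the ubiquitin ligase that marks p53 for degradation and is itself a p53 target. In unstimulated cells Mdm2 was at 102, 87.4 and 102 CPM with ctrlA, 95.7, 82.5 and 87.9 CPM with LNA1 and 129, 129.7 and 158 CPM with LNA2. After isoproterenol it was at 97.5, 95.7 and 103 CPM with ctrlA, 107, 90.4 and 96.2 CPM with LNA1 and 130.2, 118 and 157 CPM with LNA2. Every LNA2 library lay above every ctrlA and every LNA1 library of the same stimulation. LNA2 exceeded LNA1 by 0.56 ± 0.10 (log2, SE, edgeR, adjusted p = 0.0101), a call that was lost without a filter on low counts (0.57, adjusted p = 0.0774) and when the stimulated LNA2 library 4 was left out, where the difference of 0.4997 fell just under the limit. Against ctrlA the difference was 0.49 ± 0.10 (adjusted p = 0.0176), which missed the fold limit, and it was called without the libraries numbered 2 (0.57, adjusted p = 0.00898). Mdm2 was not called in LNA1 cells, at -0.07 ± 0.10 (adjusted p = 1.00).

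Trp53 itself had a mean of 47.4 ± 11.6 CPM with ctrlA, 48.4 ± 10.7 with LNA1 and 58.3 ± 13.2 with LNA2 (SD, n = 6 each). Its range was 31.1 to 57.4 CPM for ctrlA, 33.6 to 59.1 for LNA1 and 39.6 to 69.1 for LNA2, so that the groups overlapped, and the lowest value of each belonged to a library numbered 2. LNA2 was higher than ctrlA in all 6 same-numbered pairs, at a log2 difference of 0.30 ± 0.21 (SE, edgeR, adjusted p = 0.776) and 0.30 ± 0.06 under the replicate block (adjusted p = 0.00168), which is below the fold limit. Mdm4, which binds p53 and blunts its activity, was within 72.8 to 106 CPM in all 18 libraries and its LNA differences were 0.06 or less in size. Ppm1d (Wip1), a phosphatase that switches the damage response off, was within 30.3 to 46.8 CPM, with differences from ctrlA of 0.13 ± 0.10 for LNA1 and 0.12 ± 0.10 for LNA2 (adjusted p = 1.00 and 0.845).

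**Figure D3:**
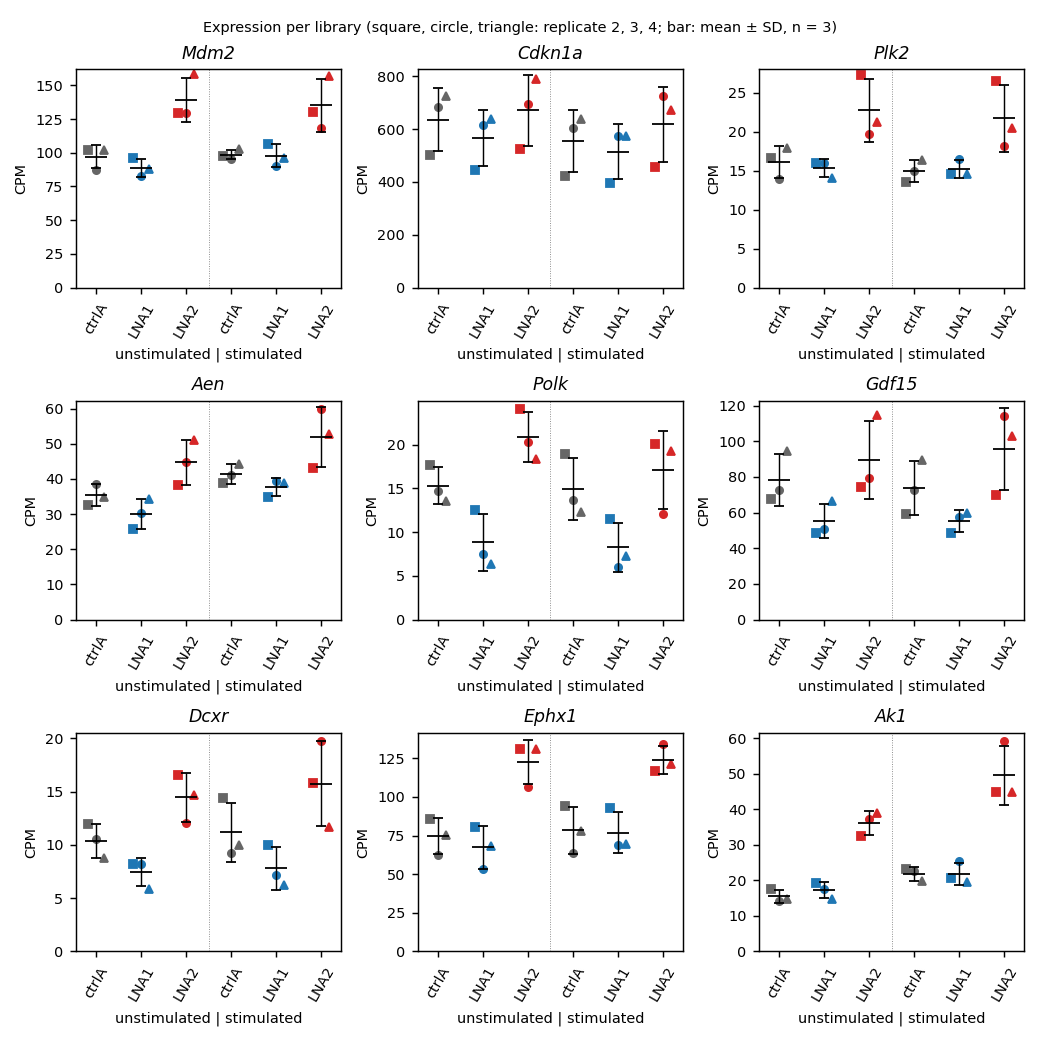
CPM of 9 members in each of the 18 libraries, by LNA and stimulation, with the mean ± SD (n = 3) as a black bar and axes starting at 0. For Ak1 and Ephx1 every LNA2 library lies above every ctrlA and LNA1 library of the same stimulation, for Polk the LNA1 libraries lie below those of ctrlA of the same stimulation, and for Cdkn1a the groups overlap.

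In the group of arrest and growth control, Plk2 was called with LNA2 and Zmat3 with the replicate block, whereas the best known arrest target of p53, Cdkn1a, was not called in any LNA comparison. Cdkn1a (chr17:29090976-29100727, plus strand) encodes p21, an inhibitor of cyclin-dependent kinases, and shares exon sequence with AC167363.2 on the opposite strand, so its counts are uncertain to that extent. Unstimulated cells had Cdkn1a at 501, 682 and 726 CPM with ctrlA, 444, 615 and 638 CPM with LNA1 and 525, 696 and 792 CPM with LNA2. In stimulated cells the levels were 422, 605 and 639 CPM with ctrlA, 395, 575 and 575 CPM with LNA1 and 458, 727 and 671 CPM with LNA2. The groups overlapped widely, with the library numbered 2 the lowest in each. Within same-numbered pairs Cdkn1a was lower with LNA1 than with ctrlA in all 6. It was higher with LNA2 in all 6 pairs with ctrlA and in all 6 with LNA1. The difference from ctrlA was -0.14 ± 0.17 (log2, SE, edgeR, adjusted p = 1.00) for LNA1 and 0.12 ± 0.17 (adjusted p = 0.954) for LNA2, and LNA2 exceeded LNA1 by 0.26 ± 0.17 (adjusted p = 0.818). Under the replicate block the last of these was 0.25 ± 0.04 (adjusted p = 0.00124), under the fold limit.

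Plk2 (chr13:110395046-110400844, plus strand), a polo-like kinase induced by p53 and by other stresses, was among the 3 members called with LNA2. Its unstimulated levels were 16.7, 13.9 and 17.9 CPM with ctrlA, 16, 16 and 14 CPM with LNA1 and 27.3, 19.7 and 21.3 CPM with LNA2. With isoproterenol they were 13.5, 14.9 and 16.3 CPM with ctrlA, 14.6, 16.5 and 14.5 CPM with LNA1 and 26.5, 18.2 and 20.4 CPM with LNA2. The 3 LNA2 libraries were above all ctrlA and LNA1 libraries in both states, and the highest in each state was the library numbered 2. LNA2 exceeded ctrlA by 0.52 ± 0.12 (log2, SE, edgeR, adjusted p = 0.0410) and LNA1 by 0.54 ± 0.12 (adjusted p = 0.0433), values close to both limits. Without the libraries numbered 2 they were 0.37 (adjusted p = 0.0536) and 0.39 (adjusted p = 0.0656) and no longer called, and without a filter on low counts the adjusted p was 0.273 and 0.190.

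Zmat3 (Wig-1), a zinc finger protein that binds RNA and is a direct target of p53, was higher in LNA2 libraries of every number. Without stimulation Zmat3 was at 13.6, 32.3 and 36.6 CPM with ctrlA, 17.5, 29.8 and 29.2 CPM with LNA1 and 23, 46.9 and 54.6 CPM with LNA2. Under isoproterenol it stood at 16.5, 32.2 and 35.5 CPM with ctrlA, 15.7, 29.1 and 26.9 CPM with LNA1 and 27.2, 49.1 and 51.6 CPM with LNA2. Libraries numbered 2 had the lowest level in every group, so the groups overlapped although each LNA2 library was above both libraries of its own number. The edgeR difference from ctrlA was 0.60 ± 0.30 (log2, SE, adjusted p = 0.516), and 0.62 ± 0.07 (adjusted p = 3.83e-05) with the replicate block. Against LNA1 it was 0.77 ± 0.30 (adjusted p = 0.372) and 0.75 ± 0.08 (adjusted p = 1.16e-05) with the block.

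The remaining arrest genes were not called for either LNA. Btg2, an antiproliferative adaptor of the deadenylase complex, was in unstimulated cells at 47.9, 36.9 and 52 CPM with ctrlA, 51.1, 42.3 and 45.3 CPM with LNA1 and 66.5, 51.2 and 56.2 CPM with LNA2. In stimulated cells Btg2 was at 41.9, 32.4 and 34.6 CPM with ctrlA, 49.4, 37.6 and 41.2 CPM with LNA1 and 60.1, 37.5 and 52 CPM with LNA2. It was higher with LNA2 than with ctrlA in all 6 pairs, by 0.40 ± 0.13 (log2, SE, edgeR, adjusted p = 0.211), and by 0.40 ± 0.06 with the block (adjusted p = 0.000540), under the fold limit. Gadd45a, a small damage-inducible protein that restrains the cell cycle, went the other way and was lower than ctrlA in all 6 LNA1 and all 6 LNA2 pairs. Its levels without stimulation were 34, 26 and 42.6 CPM with ctrlA, 22.2, 22.2 and 29.5 CPM with LNA1 and 29.7, 25.4 and 29.5 CPM with LNA2. Those after stimulation were 25.4, 23 and 24 CPM with ctrlA, 19.2, 18.9 and 22.5 CPM with LNA1 and 21.7, 21.7 and 22.8 CPM with LNA2. The difference from ctrlA was -0.37 ± 0.12 (adjusted p = 0.344; 0.00840 with the block) for LNA1 and -0.20 ± 0.12 (adjusted p = 0.651) for LNA2, and E230016M11Rik overlaps its exons on the opposite strand. Ccng1 (cyclin G1, a p53 target that feeds back on Mdm2) ranged from 83.9 to 227 CPM, was highest in the library numbered 2 of every group, and was not called at -0.30 ± 0.28 with LNA1 and 0.12 ± 0.28 with LNA2. Plk3, whose levels are given with isoproterenol below, was higher with LNA2 in all 6 pairs with ctrlA and all 6 with LNA1. Its mean log2 ratio to ctrlA with LNA2 was 0.38 unstimulated and 0.33 stimulated. With LNA1 it was higher than ctrlA in 2 of 6 pairs.

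Of the 13 apoptosis genes, 2 were at or under the floor of detection. Pmaip1 (Noxa) had 1 count in each of 2 libraries, the unstimulated LNA1 library 4 and the unstimulated LNA2 library 2, and Perp had 1 count in the stimulated LNA2 library 4. Of the 11 tested, Aen was called in LNA2 against LNA1, and Eda2r, Phlda3 and Fas were added by the replicate block. Aen (chr7:78895854-78911209, plus strand) is a nuclease that p53 induces and that digests DNA during apoptosis. Unstimulated Aen levels were 32.5, 38.6 and 35 CPM with ctrlA, 25.6, 30.3 and 34.3 CPM with LNA1 and 38.2, 44.8 and 51.2 CPM with LNA2. Stimulated levels were 38.8, 41.1 and 44.3 CPM with ctrlA, 34.8, 39.3 and 38.9 CPM with LNA1 and 43.1, 59.98 and 52.7 CPM with LNA2. In both states the LNA2 libraries were all above those of LNA1, while the LNA2 and ctrlA ranges overlapped in both. LNA2 exceeded LNA1 by 0.52 ± 0.11 (log2, SE, edgeR, adjusted p = 0.0339; 0.158 without a filter on low counts), and the differences from ctrlA were 0.33 ± 0.11 (adjusted p = 0.196) for LNA2 and -0.19 ± 0.11 (adjusted p = 1.00) for LNA1.

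None of the 3 death receptors was called by edgeR with the filter on low counts and without the block when all libraries were used. Eda2r, a receptor of the tumour necrosis factor family that binds ectodysplasin A2 and is a p53 target, had the largest LNA2 estimate of the 11. It was found at 8.79, 5.2 and 6.36 CPM with ctrlA, 8.4, 3.81 and 4.48 CPM with LNA1 and 14.5, 12.2 and 11.8 CPM with LNA2. After stimulation Eda2r was at 7.9, 4.63 and 5.21 CPM with ctrlA, 8.87, 3.93 and 3.81 CPM with LNA1 and 13, 7.7 and 9.38 CPM with LNA2. In unstimulated cells the LNA2 libraries exceeded all others, and in stimulated cells LNA2 library 3 fell below the ctrlA and LNA1 libraries numbered 2. The difference from ctrlA was 0.84 ± 0.26 (log2, SE, edgeR, adjusted p = 0.155) and 0.86 ± 0.12 with the block (adjusted p = 9.77e-05), and from LNA1 1.03 ± 0.26 (adjusted p = 0.0943) and 1.08 ± 0.12 (adjusted p = 2.69e-05). The difference from LNA1 was also called when the LNA1 library 2 was left out, with an adjusted p of 0.0314 for the unstimulated and 0.0152 for the stimulated library, without a filter on low counts (0.0436) and by DESeq2 (0.0113). Fas, the receptor of Fas ligand, was in unstimulated cells at 1.7, 1.66 and 1.88 CPM with ctrlA, 2.38, 1.42 and 1.63 CPM with LNA1 and 3.3, 1.91 and 2.59 CPM with LNA2. With isoproterenol Fas was at 1.6, 1.67 and 1.63 CPM with ctrlA, 1.51, 0.582 and 1.67 CPM with LNA1 and 3.04, 2.04 and 1.999 CPM with LNA2. LNA2 was above ctrlA in every library of the same state, but the difference of 0.55 ± 0.24 was not called (adjusted p = 0.399; 0.0705 with the block), whereas that from LNA1 was 0.71 ± 0.24 (adjusted p = 0.266) and was called with the block at 0.72 ± 0.20 (adjusted p = 0.0244). Without the stimulated LNA1 library 3, at 0.582 CPM, the Fas difference from LNA1 fell to 0.54 in the fit without the block. The block was not fitted without that library. Tnfrsf10b, the mouse TRAIL receptor, ranged from 14.8 to 35.3 CPM and was higher with LNA2 than with ctrlA in all 6 pairs, at 0.30 ± 0.19 (adjusted p = 0.687; 0.00815 with the block).

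Phlda3, a p53 target that competes with Akt for membrane lipids, had a wide spread between replicate numbers. Its CPM without stimulation were 40.8, 71.2 and 80.1 CPM with ctrlA, 34.6, 72.7 and 74.7 CPM with LNA1 and 58.6, 115 and 160.0 CPM with LNA2. With stimulation they were 44, 66.1 and 69.7 CPM with ctrlA, 42.9, 82.4 and 70.5 CPM with LNA1 and 57.3, 149.7 and 116 CPM with LNA2. The LNA2 library was the highest of its number in both states, by up to 1.18 on the log2 scale over its ctrlA counterpart. With all libraries used, Phlda3 was not called by the edgeR fit without the block, with 0.82 ± 0.30 against ctrlA (log2, SE, adjusted p = 0.276). It was called with the block, at 0.77 ± 0.10 (adjusted p = 8.02e-05). The mitochondrial arm was not called for any LNA. Bax, which permeabilises the outer mitochondrial membrane, had means of 64.8 ± 11.3 CPM with ctrlA, 55.4 ± 6.44 with LNA1 and 74.9 ± 10.7 with LNA2 (SD, n = 6 each), and LNA2 exceeded LNA1 in all 6 pairs by 0.44 ± 0.13 (adjusted p = 0.183). Bbc3 (Puma), a BH3-only activator of Bax, ranged from 5.5 to 26.5 CPM and differed from ctrlA by 0.17 ± 0.36 with LNA2. Apaf1, the core of the apoptosome, Ei24, Pidd1 and Trp53inp1 differed from ctrlA by 0.22 or less in size with either LNA.

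Polk was the member that separated the targeting LNAs most in the repair group, and the other 4 were not called. Polk (chr13:96480690-96542579, minus strand) encodes DNA polymerase kappa, which copies past damaged bases. Unstimulated cells had Polk at 17.6, 14.7 and 13.5 CPM with ctrlA, 12.6, 7.54 and 6.41 CPM with LNA1 and 24, 20.3 and 18.4 CPM with LNA2. In isoproterenol-treated cells it was at 18.9, 13.6 and 12.3 CPM with ctrlA, 11.4, 6.04 and 7.31 CPM with LNA1 and 20.1, 12 and 19.3 CPM with LNA2. All LNA1 libraries were below all ctrlA and all LNA2 libraries of their state, the 1 member of 34 for which LNA1 did not overlap with ctrlA in either state, against 0.836% of all genes lower in that way. The LNA1 difference from ctrlA was -0.82 ± 0.21 (log2, SE, edgeR, adjusted p = 0.142), -0.84 ± 0.12 with the block (adjusted p = 0.000545) and -0.96 ± 0.16 without the libraries numbered 2 (adjusted p = 0.0130). It also passed when the LNA1 library 2 was left out, at -0.998 (adjusted p = 0.0420) for the unstimulated and -0.97 (adjusted p = 0.0432) for the stimulated library. LNA2 differed from ctrlA by 0.32 ± 0.20 (adjusted p = 0.694) and from LNA1 by 1.15 ± 0.21 (adjusted p = 0.0124), the latter called in every alternative fit run. The longest run in Polk transcripts complementary to LNA1 or to LNA2 was 7 bases.

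Rrm2b, the p53-induced subunit of ribonucleotide reductase, ranged from 16.9 to 46.1 CPM, and its differences from ctrlA were 0.05 ± 0.19 for LNA1 and -0.12 ± 0.19 for LNA2. The nucleotide excision repair genes Xpc and Ddb2, which recognise damaged DNA, and Ercc5, which cuts it out, had means between 14.9 and 32.8 CPM in the 3 LNA groups and differences from ctrlA between -0.14 and 0.19 on the log2 scale. None of these 4 genes was called under the replicate block either.

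Of the 7 metabolic and stress genes, 2 were called with LNA2 against ctrlA, Ephx1 and Ak1, and 4 against LNA1, these and Gdf15 and Dcxr. Ak1 (chr2:32621758-32635058, plus strand) encodes adenylate kinase 1, which balances ATP, ADP and AMP. In unstimulated cells Ak1 was at 17.5, 14.3 and 14.8 CPM with ctrlA, 19.2, 17.7 and 14.7 CPM with LNA1 and 32.5, 37.4 and 38.9 CPM with LNA2. In stimulated cells Ak1 was at 23.3, 22.6 and 19.7 CPM with ctrlA, 20.7, 25.4 and 19.6 CPM with LNA1 and 44.8, 59.2 and 44.8 CPM with LNA2. Every LNA2 library was above every ctrlA and LNA1 library, of either state. Ak1 rose with LNA2 by 1.20 ± 0.11 against ctrlA (log2, SE, edgeR, adjusted p = 0.000177) and by 1.13 ± 0.11 against LNA1 (adjusted p = 0.000312), and kept both calls in all 18 fits that left out 1 library. It was also the only member called in the joint test of the 6 groups (adjusted p below 0.001), where 0.455% of all genes were called and the block called 13 of 34 members against 8.93%.

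Ephx1 (chr1:180976210-181020904, minus strand), the microsomal epoxide hydrolase that detoxifies reactive epoxides, was the other metabolic gene called against both. Its unstimulated levels stood at 85.5, 62.5 and 75.5 CPM with ctrlA, 80.7, 53.1 and 68.5 CPM with LNA1 and 131, 106 and 131 CPM with LNA2. Stimulated Ephx1 levels were 94.2, 63.8 and 77.7 CPM with ctrlA, 92.5, 68.6 and 69.8 CPM with LNA1 and 117, 134 and 121 CPM with LNA2. The LNA2 libraries were above all others in both states. Ephx1 rose with LNA2 by 0.69 ± 0.14 against ctrlA (log2, SE, edgeR, adjusted p = 0.0163) and by 0.78 ± 0.14 against LNA1 (adjusted p = 0.0106). The first of these calls was lost, with an adjusted p of up to 0.0584, when the unstimulated ctrlA library 3, the stimulated ctrlA library 3 or the unstimulated LNA2 library 4 was left out. Gm36961 overlaps exons of Ephx1 on the same strand, so its counts are uncertain to that extent.

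Gdf15 and Dcxr were lower with LNA1 and higher with LNA2 in all 6 pairs with ctrlA. Gdf15 (chr8:70629393-70632456, minus strand) is a secreted stress hormone that acts on the hindbrain and is induced by p53 as well as by the integrated stress response. Without stimulation it was at 67.5, 72.5 and 94.6 CPM with ctrlA, 48.7, 50.6 and 66.4 CPM with LNA1 and 74.6, 79.4 and 115 CPM with LNA2. With stimulation Gdf15 was at 59.2, 72.6 and 89.5 CPM with ctrlA, 48.4, 57.7 and 59.98 CPM with LNA1 and 69.9, 114 and 103 CPM with LNA2. The LNA1 libraries were all below those of LNA2 in each state. Those of ctrlA overlapped with LNA2 in both states and with LNA1 in stimulated cells, and lay above LNA1 in unstimulated cells. LNA2 exceeded LNA1 by 0.74 ± 0.16 (log2, SE, edgeR, adjusted p = 0.0399), whereas the differences from ctrlA, -0.46 ± 0.16 for LNA1 and 0.29 ± 0.16 for LNA2, were not called (adjusted p = 0.454 and 0.620). Dcxr (chr11:120725399-120727281, minus strand), a dicarbonyl and L-xylulose reductase, showed the same order. Dcxr was measured at 11.9, 10.5 and 8.73 CPM with ctrlA, 8.23, 8.16 and 5.9 CPM with LNA1 and 16.6, 12 and 14.7 CPM with LNA2. Under stimulation Dcxr was at 14.4, 9.2 and 10.01 CPM with ctrlA, 10.03, 7.13 and 6.2 CPM with LNA1 and 15.9, 19.7 and 11.7 CPM with LNA2. LNA2 exceeded LNA1 by 0.99 ± 0.18 (adjusted p = 0.0119), called in every alternative fit run. The LNA1 difference from ctrlA was -0.50 ± 0.18 (adjusted p = 0.445) and was called with the block (-0.50 ± 0.13, adjusted p = 0.0229), and the LNA2 difference of 0.48 ± 0.17 (adjusted p = 0.262) was called without the libraries numbered 2 (0.62, adjusted p = 0.0456). Sesn1 and Sesn2 (sestrins, which restrain mTORC1) and Tigar, a fructose bisphosphatase, differed from ctrlA by 0.15 or less in size.

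The groups were also compared without a model, by whether their libraries overlapped. With LNA2, 5 of 34 members (Mdm2, Plk2, Fas, Ephx1 and Ak1) lay above ctrlA with no overlap in either state, against 2.1% of all genes, and 8 lay above LNA1, the same 8 that edgeR called, against 1.07%. Members below ctrlA or below LNA1 numbered 0, against 1.38% of all genes for each. With LNA1, 0 members lay above ctrlA, against 1.34% of all genes.

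Leaving out 1 library at a time bore on the calls nearest the limits. Over the 18 such fits the members called with LNA2 numbered 1 to 4 against ctrlA and 4 to 7 against LNA1. The single call against ctrlA was left without the unstimulated or the stimulated ctrlA library 3 and without the unstimulated LNA2 library 4. The 4 calls against LNA1 were those without the stimulated LNA2 library 4, and 5 were left without the library 3 of unstimulated LNA1, unstimulated LNA2, stimulated ctrlA or stimulated LNA1, or without the library 4 of unstimulated LNA2 or stimulated LNA1. Plk2 stayed called against ctrlA only without the LNA1 library 2 or the LNA2 library 3 of either state (adjusted p in all 18 fits 0.0312 to 0.128). It stayed called against LNA1 only without the ctrlA library 2 of either state or the stimulated LNA2 library 3 (0.0348 to 0.134). Aen kept its call in 5 of 18 fits, those without unstimulated ctrlA library 3, unstimulated LNA1 library 4, stimulated ctrlA library 4 or the LNA2 library 2 of either state (0.0238 to 0.115). Gdf15 kept it in 6, those without the ctrlA library 4 of either state, unstimulated LNA1 library 4, stimulated ctrlA library 2 or the LNA2 library 2 of either state (0.0214 to 0.128).

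β-adrenergic stimulation was compared with the unstimulated state over the 3 LNAs, 9 libraries against 9. With edgeR 0 of 34 members were called, where 3.2% of all genes were called. DESeq2 called 0 members as well, and the share of all genes it called is not given here. At an unadjusted p below 0.05 there were 5 of 34 members and 2242 of all 14949 genes, about the same share. The replicate block called 1, Plk3, which was higher, against 7% of all genes and 3.87% higher. Without the fold limit 2 members passed, Ak1 (higher) and Gadd45a (lower), against 4.58% of all genes, 2.67% higher and 1.91% lower. With the block and without the fold limit 10 passed, 3 higher and 7 lower, against 26.4% of all genes, 14.2% higher and 12.2% lower. The median over the members was -0.03 with 12 of 34 above 0, against -0.002 over all genes. With the block 15 of 34 were above 0.

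Markers of other cells moved with isoproterenol as well. The macrophage list summed to 8.28 to 28.8 CPM (median 13.7) in unstimulated and 12.4 to 44.6 CPM (median 26.2) in stimulated libraries, and Cd68 rose by 0.90 ± 0.18 (log2, SE, edgeR, adjusted p = 0.00618). The preadipocyte list summed to 41.2 to 57.0 CPM (median 45.2) and 42.7 to 88.6 CPM (median 62.3), and Ly6a rose by 1.58 ± 0.41 (adjusted p = 0.0415) while the other 3 tested markers were below 0 and not called. Their part in the results for isoproterenol was not tested.

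Plk3, a polo-like kinase activated by DNA damage and stress, was higher with isoproterenol in all 9 same-numbered pairs. Its unstimulated values were 22.6, 39.2 and 52.4 CPM with ctrlA, 23.5, 33.6 and 43 CPM with LNA1 and 31, 46.2 and 71.4 CPM with LNA2. Its stimulated values were 35, 54.2 and 77.9 CPM with ctrlA, 38.4, 49.1 and 68.6 CPM with LNA1 and 42.5, 76.5 and 89.4 CPM with LNA2. The spread between replicate numbers was wider than the rise within a number, and the libraries numbered 2 were lowest in every group. The difference was 0.56 ± 0.23 (log2, SE, edgeR, adjusted p = 0.239), 0.57 ± 0.05 with the block (adjusted p = 9.20e-07) and 0.54 ± 0.15 without the libraries numbered 2 (adjusted p = 0.0405). Tctex1d4 overlaps its exons on the opposite strand, which leaves its counts uncertain. Ak1 and Aen were also higher in all 9 pairs, with 0.43 ± 0.09 (adjusted p = 0.0119) and 0.26 ± 0.09 (adjusted p = 0.142), and 8.4% of all genes were higher in all 9.

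Lower in all 9 pairs were 6 members, Btg2, Gadd45a, Bbc3, Ei24, Rrm2b and Sesn1, against 6.91% of all genes. Gadd45a had 22.2 to 42.6 CPM (median 29.5) unstimulated and 18.9 to 25.4 CPM (median 22.5) stimulated, a difference of -0.38 ± 0.10 (log2, SE, edgeR, adjusted p = 0.0372) under the fold limit. Bbc3 had 6.11 to 26.5 CPM (median 19.6) and 5.5 to 19.9 CPM (median 13.3), at -0.51 ± 0.29 (adjusted p = 0.499; -0.49 and 0.00112 with the block), and was called without the libraries numbered 2 (-0.58, adjusted p = 0.0142). Sesn1 had 24.2 to 37.3 CPM (median 28.1) and 17.6 to 29.5 CPM (median 22.4), at -0.32 ± 0.12 (adjusted p = 0.178; 0.000195 with the block). Ranges of the 2 states overlapped for all 3 genes. Trp53 and Mdm2 were close to level, at 0.00 ± 0.17 and 0.04 ± 0.08, and Cdkn1a was at -0.15 ± 0.14 (adjusted p = 0.768).

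**Figure D4:**
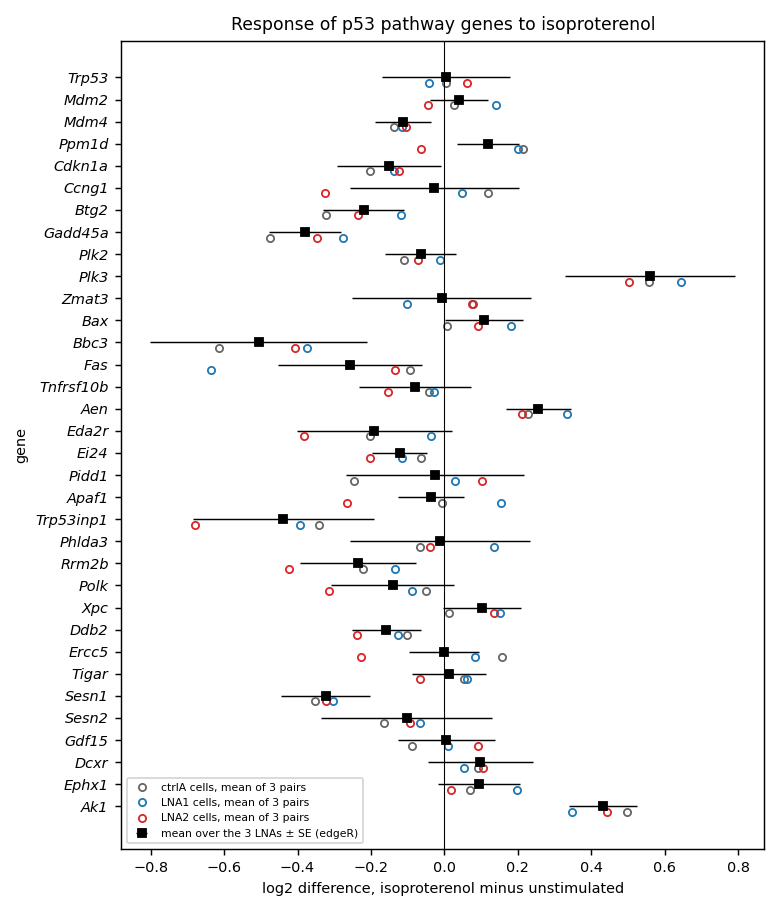
Log2 difference between isoproterenol-stimulated and unstimulated cells for the 34 tested members, with black squares for the edgeR estimate over the 3 LNAs ± SE and open circles for the mean of the 3 same-numbered pairs in ctrlA (grey), LNA1 (blue) and LNA2 (red) cells. Plk3 and Ak1 lie to the right in all 3 LNAs and Gadd45a, Bbc3, Trp53inp1 and Sesn1 to the left.

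Whether the response to isoproterenol depended on the LNA was tested by interaction terms. For LNA1 and for LNA2 edgeR called 0 of 34 members and 0 of 14949 genes (0%), and 0 members reached an unadjusted p below 0.05 in either interaction, against 105 and 116 of all genes. With the replicate block 0 and 5 members had an unadjusted p below 0.05, against 393 and 807 of all genes, and 0 were called, and DESeq2 called 0 members. The standard errors of these terms exceed those of the averaged comparisons, and a p above the limit does not show that the responses were alike.

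Genes of the pathway outside the member list were read from 3 further lists. Of 18 other p53 targets, 16 were tested and 0 were called for either LNA, between the LNAs or for isoproterenol, with medians of -0.11, 0.11, 0.23 and 0.08 on the log2 scale for LNA1 and LNA2 against ctrlA, LNA2 against LNA1 and isoproterenol. Genes of these lists that were called with the replicate block, but not by the edgeR fit of all libraries without it, are named after their values were seen. Of the 16 other targets the block called 2 higher with LNA2 than with ctrlA, where 3.77% of all genes were called higher, Sco2 (assembly of cytochrome c oxidase; 0.64 ± 0.18, SE, adjusted p = 0.0188) and Ccnd1 (cyclin D1, which drives entry into the cell cycle; 0.66 ± 0.14, adjusted p = 0.00299), and 4 against LNA1, where 1.65% of all genes were called higher, these 2 (Sco2 0.58 ± 0.18, adjusted p = 0.0399; Ccnd1 0.68 ± 0.14, adjusted p = 0.00399) and Psrc1 (0.69 ± 0.14, adjusted p = 0.00442) and Steap3 (0.64 ± 0.09, adjusted p = 0.000264). Sco2 was also called higher with isoproterenol (0.56 ± 0.15, adjusted p = 0.0110). All 21 sensors, kinases and repair factors of the damage response were tested and 0 were called in these comparisons, with a median of -0.14 and 4 of 21 above 0 for LNA2 against ctrlA. Above 0 were 6 for LNA1 against ctrlA (median -0.07), 8 for LNA2 against LNA1 (median -0.05) and 9 for isoproterenol (median -0.01). The block called Nbn, a subunit of the break-sensing MRN complex, lower with LNA2 (-0.56 ± 0.10, adjusted p = 0.000978). Of the 12 integrated stress response genes, all tested and including the members Gdf15 and Sesn2, Gdf15 alone was called, in LNA2 against LNA1, and the block added Trib3, lower with isoproterenol (-0.53 ± 0.05, adjusted p = 6.96e-07). Of these 12, 1 was above 0 with LNA1 (median log2 difference -0.19), 6 with LNA2 (median -0.004), 11 for LNA2 against LNA1 (median 0.11) and 4 with isoproterenol (median -0.18).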

How the data were processed

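Polyadenylated RNA of 18 libraries was sequenced by the authors, trimmed with cutadapt and quantified with Salmon against Gencode M22 (GRCm38), and versions are not given in the sources used here. The deposited table holds expected counts per gene, of which 0 were not whole. Whether strand was used in counting is not stated, so genes that overlap on opposite strands may share reads. Besides the members named above, exons of Ei24, Rrm2b, Ddb2 and Tigar overlap those of a gene on the opposite strand. Exons of Bax overlap those of Gm45808 on the same strand. Counts of these members are uncertain to that extent. Groups came from the labels. Members and gene lists were chosen with earlier results of these data known.

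Genes were filtered with filterByExpr (minimum count 10, minimum total 15), normalised by TMM and fitted with the quasi-likelihood test of edgeR 4.0.16 (R 4.3.3) with 1 term per group over all 18 libraries, leaving 12 residual degrees of freedom. LNA contrasts were averaged over both states. Calls required a Benjamini-Hochberg adjusted p below 0.05 and an absolute log2 difference above 0.5, interactions the first alone, and the joint test an adjusted p below 0.001. The fit was tested on simulated counts. Alternatives were DESeq2 size factors, no filter, DESeq2 1.42.0, the replicate block, no fold limit, omission of the libraries numbered 2 and of each library in turn. The block with no fold limit was added after seeing the data. Deviations from group means correlated at 0.24 to 0.72 in all 45 pairs of libraries with the same number, which the labels give. In the 90 pairs that differed in both number and group they correlated at -0.60 to 0.40 (pairs within a group were not used). The numbers were therefore taken to pair the libraries. The ranges overlapped, and the libraries numbered 2 stood apart from the other 2 in every group. The correlations therefore cannot show that libraries numbered 3 and 4 are paired across groups.

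Values are given library by library for Trp53, Cdkn1a, Mdm2 and every member called in any comparison by the edgeR fit with or without the block, but where over 16 qualified, for the 16 with the smallest adjusted p over the 4 contrasts. Here 17 qualified and Trp53, the last, is given by ranges. Gene positions came from GENCODE M21 and promoters from RefSeq. Totals per library ranged from 9167560 to 19723021 counts. Of the 18 replicate pairs, 0 had identical counts, with a chi-square of 4.44 to 189 per degree of freedom.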

Additional observations from a re-analysis of the deposited data

Results flagged for a closer look

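For 3 members, all 3 same-numbered pairs of one group moved one way and all 3 pairs of another moved the opposite way under the same contrast, which marked them for a closer look, and none of them was called in any comparison. The share of all genes with this pattern was not counted, so nothing about the members is read from their number. Pidd1, a scaffold of a caspase-activating complex, was higher with LNA1 than with ctrlA after stimulation (mean log2 ratio 0.12) and lower without it (-0.16), a difference of 0.276 for which the edgeR interaction had an adjusted p of 1.00. Ercc5 was higher with isoproterenol in ctrlA cells (0.16) and lower in LNA2 cells (-0.23), a difference of 0.383, where the interaction had an adjusted p of 1.00 and of 0.810 with the replicate block. Apaf1 was higher with LNA2 than with LNA1 in unstimulated cells (0.30) and lower in stimulated cells (-0.12), a difference of 0.418. Seen as a response to isoproterenol, the same libraries gave Apaf1 0.15 with LNA1 and -0.26 with LNA2, which is the same difference of 0.418, and it was not tested.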

How the results depend on the processing

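The 25 member differences examined were those called by edgeR with or without the replicate block. Those of Trp53 and Cdkn1a for LNA2 against ctrlA and against LNA1 were included as well. All 25 kept their direction under every alternative run, and DESeq2 size factors left all 25 on their side of the limits. With the replicate block 0 lost a call and 10 gained one, but these 10 were included because the block called them. Without the libraries numbered 2, 8 gained a call and 2 lost one. DESeq2 gained 2 and lost 0, and the fit with no filter gained 1 and lost 4. Other members close to 0 changed sign, so that with the replicate block 9 in place of 10 of 34 were above 0 for LNA1 and 15 in place of 12 for isoproterenol. The median of all genes, close to 0 throughout, was 0.004 in place of -0.002 for isoproterenol with DESeq2 size factors and 0.002 in place of -0.02 for LNA2 against ctrlA without the libraries numbered 2. Counts below are those for LNA1 against ctrlA, LNA2 against ctrlA, LNA2 against LNA1 and isoproterenol. All genes called numbered 66, 213, 138 and 479 by edgeR. The replicate block, with libraries paired by number, called 364, 826, 615 and 1046. Without the libraries numbered 2 the counts were 180, 738, 443 and 726, and DESeq2 called 133, 338 and 232 in the LNA comparisons. The block with no fold limit called 1166, 3081, 2306 and 3943. Members called numbered 0, 3, 8 and 0, and with the block and no fold limit 5, 15, 20 and 10. The block alone gave 2 members for LNA1, 6 for LNA2 and 1 for isoproterenol, and omission of the libraries numbered 2 gave 1, 7 and 2. DESeq2 gave 1 for LNA1, and no fold limit 2 for isoproterenol. The interaction of LNA2 with isoproterenol had 0 genes by edgeR, 2 by DESeq2 and 0 to 1 with 1 library left out. The joint test had 68 genes, and 116 with no filter, 556 with DESeq2, 1335 with the block, 111 without the libraries numbered 2 and 34 to 55 with 1 library left out, and its members numbered 1, or 5 with DESeq2 and 13 with the block. With 1 library left out, LNA1 gave 32 to 82 genes and 0 to 1 members, LNA2 113 to 262 and 1 to 4, LNA2 against LNA1 73 to 153 and 4 to 7, and isoproterenol 394 to 477 and 0. Of 450 member values from these fits, 388 stayed on their side of the limits, 58 lost a call and 4 gained one. The cause of these changes was not tested. Members near the floor of 3 counts, Pmaip1 and Perp, could not be tested at this depth.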
